A study of Gallus gallus with 16 samples.

Results

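The comparison described here sets 3 chick (Gallus gallus) RNA libraries from neural crest targeted at sox10 against 2 libraries from a Cas9 control, 5 of the 16 libraries of the series, across all expressed genes. Members were taken by their column names, which match the titles. The sox10 embryos carried the plasmids pcU6:sox10_g1 and pcU6:sox10_g2 with pCAG Cas9-2A-Citrine, and the control embryos carried pCAG Cas9-2A-Citrine alone. Both were wild-type embryos at Hamburger and Hamilton stage 18, an early embryo with limb buds, and the tissue label of both names Citrine-positive neural crest cells. Libraries of the tfap2b group (2 guide plasmids), the double group (both tfap2b guides with pU6:sox10_g1), the msx1 group (1 guide plasmid) and the sox3 group (2 guide plasmids) entered the same fit.

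SOX10 is a SoxE transcription factor with an HMG DNA-binding domain. Migrating neural crest cells make it, and in vertebrates it is needed for glia, pigment cells and enteric neurons that arise from them. Vagal neural crest supplies most of the enteric nervous system and part of the heart. TFAP2B, set beside it in the series, is another transcription factor of neural crest.

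The CAG promoter is active in most cell types, so that Cas9 and Citrine mark electroporated cells and not neural crest alone. The labels describe sorted cells of the vagal region, but their RNA extraction text speaks of dorsal neural tubes, and the files do not settle which holds. The control had no guide plasmid, so that against it alone carrying a guide and cutting sox10 cannot be told apart. Of 14081 genes tested, the sox10 group had 2893 higher and 3708 lower than the msx1 libraries, and 2239 higher and 3038 lower than the sox3 libraries. Against the tfap2b libraries, which also carried guides, it had 92 higher and 270 lower genes. Set against the control, the tfap2b group had 2488 higher and 2942 lower genes, and the double group 2402 and 2841. The msx1 group had 151 and 248 there, and the sox3 group 81 and 10. The part of carrying a guide was not tested. No label says that libraries came from separate embryos or days, so the p-values rest on a spread that may be technical. In bulk RNA, fewer cells of a type and less RNA per cell cannot be told apart either. The gene IDs of the deposited table are not paired with names and 0 of them matched the reference table used here. The sox10 transcript, markers of neural crest and markers of other cell types were therefore not analysed here. Genes are described by level, structure and place, and 4 are named by ID.

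Total counts were 9112556, 9938456 and 10263454 in the sox10 libraries, against 19355001 and 22142722 in the control libraries. Thinned to 9112556 counts each, the sox10 libraries held a count for 13369, 12982 and 13383 genes, against 14875 and 14899 in the control. The 573, 600 and 544 most abundant genes gave 50% of all counts in the sox10 libraries, while 1126 and 1183 genes were needed for that in the control libraries. Fewer genes thus made up more of each sox10 library, and the sox10 and control groups did not overlap on either measure. This was not particular to the sox10 group. The number of genes for 50% of counts was 775, 607 and 692 in the tfap2b and 742, 774 and 735 in the double libraries. It was 958 to 1190 in the sox3 and msx1 libraries. Only female birds carry the W chromosome. Its counts were 161 to 210 CPM (read counts scaled to library size, here the library total) in the sox10 libraries, against 364 and 382 CPM in the control. The part of the W chromosome in the results below was not tested. For every library the labels give 6 as the minimum RNA integrity number, a score of RNA quality. The part of RNA quality in the results below, those by gene length included, was not tested either.

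By correlation and by SD, the sox10 libraries differed more among themselves than those of any other group. Pearson's r of log2 CPM over the 14081 genes tested was 0.868 to 0.892 between sox10 libraries, against 0.986 between the control libraries, and genes are not independent points. Sox10 replicate 2 lay at 0.914, 0.907 and 0.911 with the 3 tfap2b libraries and at 0.903, 0.907 and 0.906 with the 3 double libraries, all above its values with the other sox10 libraries (0.879 and 0.892). Between sox10 and control libraries r was 0.764 to 0.806. The median SD of a gene's log2 CPM was 0.683 over the sox10, 0.515 over the tfap2b and 0.140 over the control libraries. In the quintile of genes with the highest level it was 0.317 in the sox10 group and 0.0839 in the control, and in the second quintile 1.25 and 0.207. The control libraries differed by 9.44 times the sampling noise (median chi-square over genes with 50 summed counts or more). They were not 1 library deposited again and are counted as 2, though separate libraries of 1 RNA could also differ this much.

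Part of that spread was all or none. At equal depth, 130 to 200 genes with at least 5 CPM in one sox10 library had 0 counts in another, which is 1.48% to 2.25% of the genes that reached 5 CPM in either. The same held for 18 to 22 genes between pairs of tfap2b libraries (0.198% to 0.246%) and for 25 to 34 between pairs of double libraries (0.270% to 0.373%). Between the control libraries it was 0 of 9971 genes, which allows a share of up to 0.0301%. Such limits cover counting error only.

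Of 14081 genes tested, 2795 were called higher and 3743 lower in the sox10 group than in the control, 46.4% in either direction, by edgeR's quasi-likelihood test at a Benjamini-Hochberg adjusted p under 0.05. At an unadjusted p under 0.05 there were 7535 genes. The share called was 19.8% for higher and 26.6% for lower genes, and these shares are the background for every class below. The lower genes made up 6.98% ± 0.746 of tested counts in the sox10 libraries (SD, n = 3) and 33.1% ± 0.259 in the control (SD, n = 2). Their share was 7.16%, 7.63% and 6.16% in the single sox10 libraries, against 32.9% and 33.3% in the control libraries. The higher genes made up 71.0% ± 2.73 of counts in the sox10 libraries (SD, n = 3) and 34.5% ± 0.811 in the control (SD, n = 2). These genes were chosen on the same libraries, so the shares describe the size of the change and do not test it.

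Lower calls were larger in size than higher calls. Past a 4-fold fitted change there were 947 higher and 2452 lower genes. Past 16-fold there were 189 higher and 1006 lower, and past 64-fold 73 higher and 391 lower. These counts use fitted values, which have no bound for a gene with 0 counts throughout a group. Of the lower genes, 251 had 0 counts in every sox10 library, and of the higher genes, 40 had 0 counts in every control library. The size of change of such genes is not fixed by the counts, and their part in the larger classes was not tested. The median fitted log2 fold change was 1.68 over the higher and -2.60 over the lower genes. It was -2.58 over the lower genes when the 251 with 0 counts in every sox10 library were set at the bound that 3 counts over the group give. No class median named below moved by more than 0.08 in this way, where those of chromosomes 5 and 16 were not checked. With upper-quartile scaling the majority turned, to 3311 higher and 3154 lower genes. All 3 sox10 libraries lay above both control libraries for 2682 of the 2795 higher genes, and below both for 3742 of the 3743 lower genes. Over all genes tested, such a separation was found for 24.2% in the higher and 40.7% in the lower direction. More than a 2-fold difference from the control mean was seen in all 3 sox10 libraries for 1733 higher and 2996 lower genes.

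**Figure D1:**
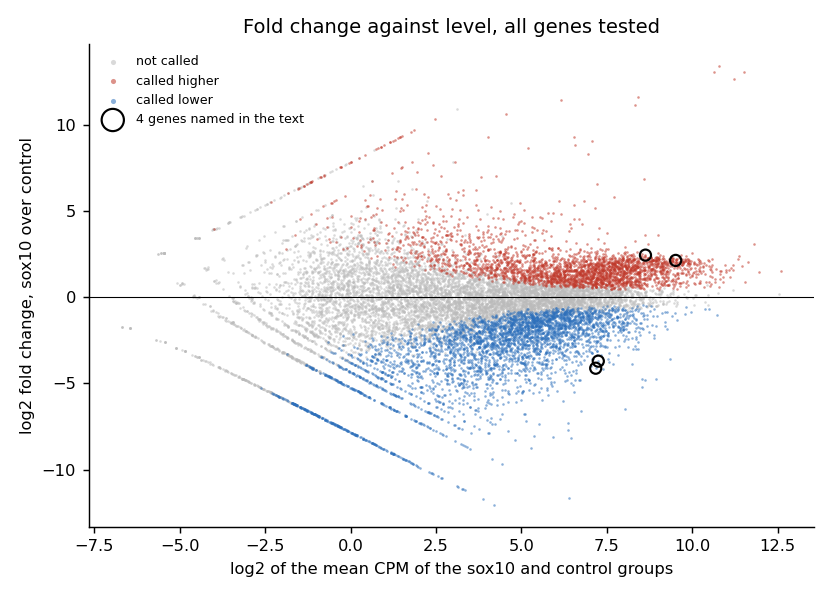
Fitted log2 fold change (sox10 over control) of each gene tested against the log2 mean CPM of both groups. Red and blue points are the 2795 genes called higher and the 3743 called lower, circles mark the 4 genes named by ID, and the 21 genes at 0 in both groups are not drawn. Most higher genes lie at high levels and under 4-fold, while lower genes reach further from 0.

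Examples of single genes are the 2 in each direction with the smallest adjusted p among 367 higher and 528 lower genes. Those 367 and 528 genes were at least 4-fold changed, at 50 CPM or more in the higher group, apart in all libraries and free of overlap with other features. Groups that lie apart were thus required by this choice, and libraries close together were favoured. ENSGALG00000026741 (galGal5 chromosome 4, 53989695 to 53994661, plus strand, 5 exons) had 665, 620 and 728 CPM in the sox10 libraries, against 123 and 124 CPM in the control libraries. The choice required that all 3 sox10 libraries lie above both control libraries. Its log2 fold change was 2.44 (SE 0.20) with an adjusted p of 8.84e-07 by edgeR's quasi-likelihood test.

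ENSGALG00000038032 (chromosome 10, 10134902 to 10144545, plus strand, 6 exons) had 1189, 1134 and 1258 CPM in the sox10 libraries, against 281 and 264 CPM in the control. It was among the abundant genes in both groups, which lay apart as the choice required (log2 fold change 2.13, SE 0.18, edgeR adjusted p 9.54e-07). Both genes were intermediate in the tfap2b group, at 479 ± 95.2 CPM for the first and 814 ± 157 CPM for the second (SD, n = 3). In the double group they averaged 383 ± 38.8 and 776 ± 19.2 CPM (SD, n = 3). The sox10 group was above the double group for both (log2 fold change 0.81 and 0.62, edgeR adjusted p 0.00885 and 0.0154). Against the tfap2b group the differences of 0.49 and 0.55 did not pass (edgeR adjusted p 0.118 and 0.0557).

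ENSGALG00000006221 (chromosome 9, 4834319 to 4867054, minus strand, 50 exons, 7790 bp of exons) fell to 22.5, 11.4 and 13.4 CPM in the sox10 libraries, against 290 and 257 CPM in the control. Replicate 1 kept the most, and all 3 libraries lay below both control libraries, as the choice required (log2 fold change -4.12, SE 0.27, edgeR adjusted p 2.92e-07). ENSGALG00000016397 (chromosome 3, 94937212 to 94939190, plus strand, 3 exons, 1976 bp of its 1979 bp span) had 22.8, 19.5 and 22.6 CPM in the sox10 libraries, against 301 and 266 CPM in the control. The 3 sox10 libraries lay close together (log2 fold change -3.71, SE 0.25, edgeR adjusted p 2.92e-07). The first of these genes averaged 11.7 CPM in the tfap2b and 18.8 CPM in the double group, and 266 CPM in the msx1 and 143 CPM in the sox3 group. The second averaged 17.4 CPM in the tfap2b, 15.1 CPM in the double, 50.1 CPM in the msx1 and 80.7 CPM in the sox3 group. This gene was also lower than in the control in the msx1 group (log2 fold change -2.50, edgeR adjusted p 6.99e-05) and in the sox3 group (-1.81, 0.00363). Set against msx1 in place of the control, its log2 fold change in the sox10 group was -1.21, and against sox3 it was -1.90. Neither was shown to differ between sox10 and tfap2b (log2 fold change 0.42 and 0.32, edgeR adjusted p 0.345 and 0.433) or double (log2 fold change -0.25 and 0.52, adjusted p 0.502 and 0.117).

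**Figure D2:**
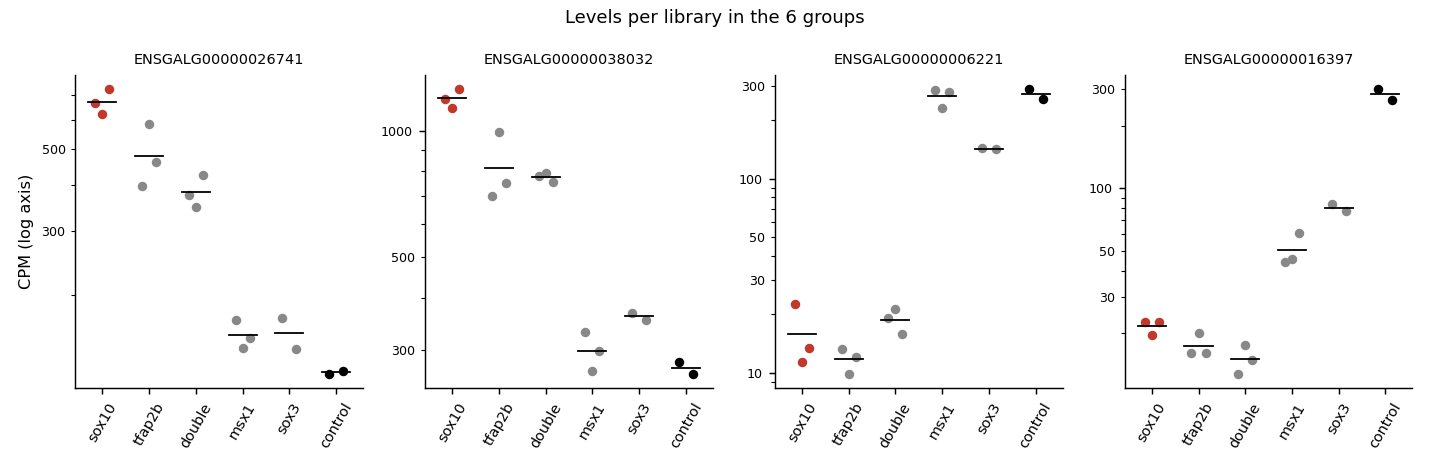
CPM (log axis) of the 4 named genes in each library of the 6 groups, with bars at the group means. The sox10 libraries, in red at the left, lie apart from the control libraries, in black at the right, as the choice of genes required. On the log axis the means of the tfap2b and double groups lie nearer to the sox10 than to the control mean.

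How the calls fell over the level of a gene was read from the 11 libraries of the other 4 groups, which are outside the contrast. In the quintile of genes with the highest level there (87 CPM or more), 51.4% were called higher and 18.4% lower in the sox10 group than in the control. In the lowest quintile (up to 1.79 CPM) 3.84% were higher and 16.8% lower. This quintile reaches down to 0 CPM, and a gene at 0 there passed the expression filter only through the sox10 or control libraries. Values of this quintile are thus not independent of the contrast. In the middle quintile 13.6% were higher and 35.4% lower. The median log2 CPM of the highest quintile lay 0.67, 0.69 and 0.58 above the control mean in the 3 sox10 libraries. That of the second quintile lay at -1.40, -1.11 and -1.19. In all 3 libraries the median was above the control for the highest quintile alone and lowest for the second quintile.

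The 11 libraries include 6 of the tfap2b and double groups, which resemble the sox10 libraries, and this bears on the top and on the low quintiles. With levels taken from the 5 sox3 and msx1 libraries, a choice made after the data were seen, 40.4% of the highest quintile were called higher and 28.4% lower. Its median was 0.20, 0.21 and 0.05 in the sox10 libraries. In the lowest quintile 5.65% were then higher and 12.8% lower, and of 2816 genes in the fourth quintile 701 were higher and 1029 lower. The fitted median of the lowest quintile was -0.75 with the 11 libraries and -0.19 with the 5. That of the second quintile was -0.74 and -0.56, and that of the highest 0.67 and 0.18.

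Genes with short exonic sequence stood above those with long. Exonic length is the summed length of a gene's exons in the deposited annotation. Among the 2816 genes with the shortest exons (up to 1096 bp), 24.0% were called higher and 18.3% lower. Among the 2817 with the longest (3339 bp or more), 10.4% were higher and 34.6% lower. Library medians of the longest quintile were -0.76, -0.72 and -0.86, and those of the shortest quintile were -0.30, -0.10 and 0.12. The fitted median of the shortest quintile was 0.36, so that its sign differed from that of 2 libraries.

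The contrast by length was steepest among abundant genes. Of 306 genes in both the highest quintile of level and the shortest quintile of exons, 85.9% were called higher and 2.61% lower, with a median fitted log2 fold change of 1.87. Of 645 genes of the same level quintile with the longest exons, 20.6% were higher and 35.5% lower, with a median of -0.26. With levels from the sox3 and msx1 libraries, 180 of 230 abundant short genes were higher and 14 lower, and 105 of 774 abundant long genes were higher and 354 lower. In the fourth quintile of level the shares called higher were 47.6% for the shortest and 11.4% for the longest genes. In the lowest quintile of level few genes were called, 5.95% higher and 15.9% lower among the shortest and 3.52% higher and 11.7% lower among the longest. Length thus went with direction among abundant genes under both ways to set the level, and less so among the scarcest.

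**Figure D3:**
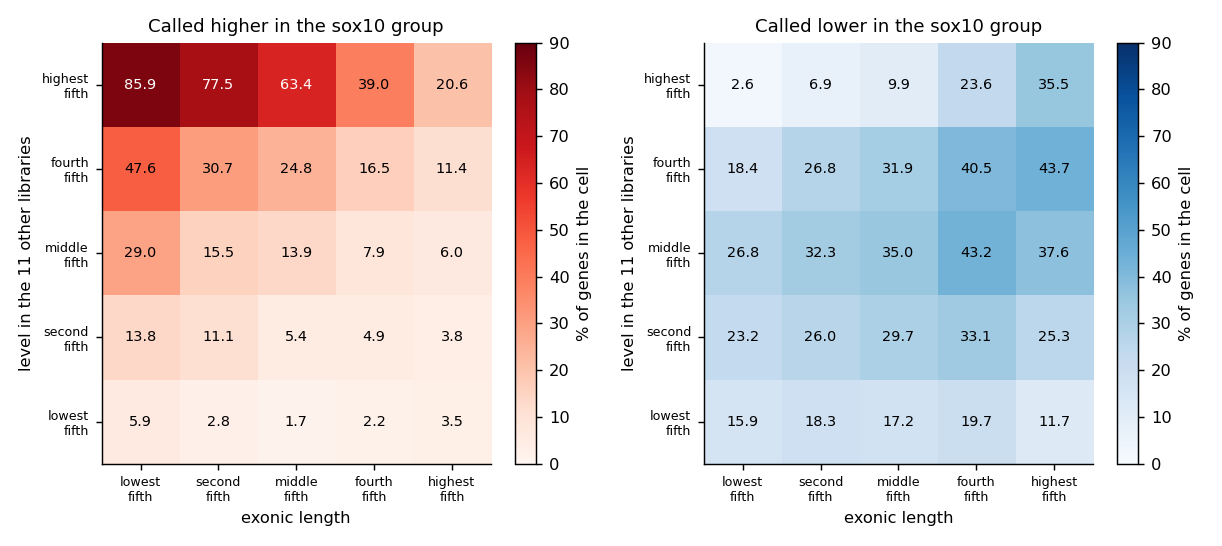
Share of genes called higher (left, red) and lower (right, blue) in the sox10 group against the control, in 25 cells of level in the 11 other libraries and exonic length. The share called higher is 85.9% for abundant short genes and 20.6% for abundant long genes, and the share called lower is highest, at 43.7%, in the fourth quintile of level with the longest exons.

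Genes with many exons or long introns were low, and so were single-exon genes. Of 1722 genes with over 20 exons, 8.48% were called higher and 36.8% lower, with library medians of -0.89, -0.87 and -1.07. Genes with 4 to 8 exons (4421) were called higher in 26.3% and lower in 21.4%, with library medians of -0.24, -0.16 and -0.01. The 567 genes with 1 exon were low in all 3 sox10 libraries (medians -1.46, -1.07 and -1.16), with 11.5% called higher and 28.2% lower. The share called lower was near the 26.6% of all genes, and the medians near those of the second quintile of level. Single-exon genes were also the scarcest, at a median of 1.01 CPM in the sox10 group and 1.59 CPM in the control. In the lowest quintile of level, 6.54% of 306 such genes were higher and 24.2% lower, against 3.84% and 16.8% of that quintile. As said above, that quintile is not independent of the contrast. Of the 567 single-exon genes, 77 were at 0 in every sox10 library and 5 at 0 in both control libraries. Over all 14081 genes these counts were 424 and 118. Genes with the longest introns (36806 bp or more in all) were called higher in 11.6% and lower in 31.8%, with library medians of -0.91, -0.80 and -0.95. Those with the shortest introns were called higher in 20.8% and lower in 24.4% (library medians -0.66, -0.41 and -0.28), below the second quintile with 25.3% and 23.9% (-0.30, -0.28 and -0.22). Over all genes tested the library medians were -0.55, -0.43 and -0.50, and these are the background for each library median of a class or chromosome. The fitted median of all genes is another measure. It was -0.31 under TMM scaling, -0.21 with RLE size factors and -0.04 with upper-quartile scaling.

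The tfap2b and double groups showed a like order over exonic length. The tfap2b libraries had medians of -0.80 to -0.54 and the double libraries of -0.63 to -0.45 in the longest quintile of exons, while those of the msx1 group were -0.05 to 0.07 and those of the sox3 group -0.18 to -0.14. In the shortest quintile they were 0.04 to 0.20 (tfap2b), -0.01 to 0.07 (double), -0.20 to -0.04 (msx1) and -0.02 in both sox3 libraries. All of them are set against the same 2 control libraries, so that these values are not separate evidence. A direct contrast sets no value against the control, although all 16 libraries share the estimate of spread. That estimate is the same for each group, while the median SD was 0.683 over the sox10 and 0.140 over the control libraries. With the 2 groups fitted alone, calls over all genes fell from 1844 to 233 against double and from 362 to 0 against tfap2b. The counts by length below come from the shared fit. Set against the double group, 313 of the shortest genes were higher in the sox10 group and 117 lower. Of the longest genes, 118 were called higher and 203 lower, where the shares over all genes were 6.95% and 6.15%. Against the tfap2b group, with shares over all genes of 0.653% and 1.92%, 10 of the shortest genes were higher and 42 lower, and 32 of the longest were higher and 56 lower.

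**Figure D4:**
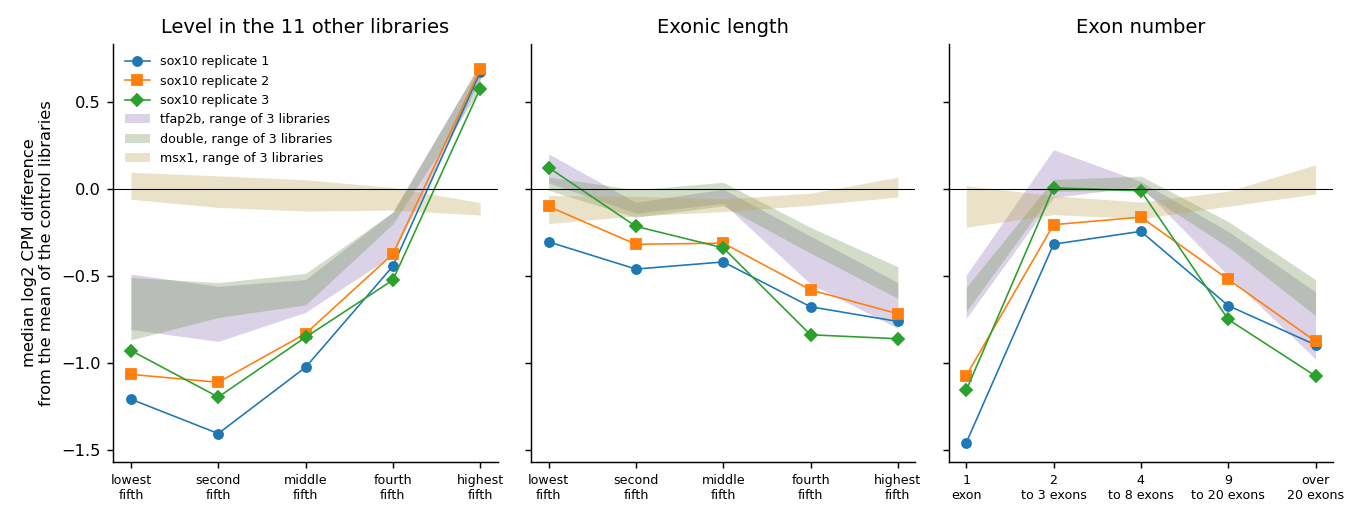
Median log2 CPM difference from the mean of the control libraries by level, exonic length and exon number, for each sox10 library (points joined by lines) and as the range over the 3 tfap2b, double and msx1 libraries (bands). The sox10 lines run from -1.21 to -0.93 in the lowest quintile of level up to 0.58 to 0.69 in the highest, and are lower for the longest than for the shortest exons, while the msx1 band stays between -0.22 and 0.14.

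Chicken chromosomes differ widely in size, and the small ones, called microchromosomes, are dense in genes with short introns. Genes on the macrochromosomes (1 to 5) were called higher and lower equally often, 1417 of 6300 each way. On the microchromosomes (11 to 33), 811 of 4776 genes were higher and 1581 lower. Library medians were -0.80, -0.74 and -0.84 on microchromosomes, against -0.34, -0.23 and -0.27 on macrochromosomes, and the control libraries differed from their mean by 0.04 on microchromosomes. In each sox10 library the microchromosome median was the lower one, while genes of both classes were called in both directions. The tfap2b and double groups showed a like split against the same control libraries. Their library medians were -0.74 to -0.50 (tfap2b) and -0.62 to -0.46 (double) on microchromosomes. On macrochromosomes they were -0.06 to 0.02 and -0.04 to 0.06. In the direct contrast with tfap2b the fitted medians were 0.02 on microchromosomes and -0.03 on macrochromosomes.

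The split in lower calls was also seen within quintiles of intron length, exonic length or level, each taken alone. Within the second quintile of intron length, 33.6% of 996 macrochromosome genes were called higher and 16.3% lower, while 18.6% of 1290 microchromosome genes were higher and 31.1% lower. In the shortest quintile of introns the classes were closer. There, 22.2% of 1039 macrochromosome genes were higher and 22.6% lower, against 21.8% and 26.3% of 1264 microchromosome genes. Among genes with the longest exons, the median fitted log2 fold change was -0.95 on microchromosomes and -0.48 on macrochromosomes. Among genes with the shortest it was 0.25 and 0.44. In the highest quintile of level, 46.9% of microchromosome genes were higher and 23.5% lower, against 55.5% and 14.8% on macrochromosomes. Microchromosome genes were thus called lower more often in each quintile of exonic length and of level.

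Single chromosomes spread around this split. Of 31 chromosomes with at least 20 genes tested, the lowest fitted median was that of chromosome 22 (-1.14, 115 genes), followed by chromosomes 24 and 17 (-0.80 on the last, 293 genes). On chromosome 24, 18 of 164 genes were called higher and 64 lower, and its library medians were -0.97, -1.15 and -1.10. Chromosome Z, which male birds carry in 2 copies and females in 1, had the highest fitted median (0.06, 689 genes), with 24.1% called higher and 19.3% lower. Its library medians were -0.24, 0.00 and -0.20. Of 23 W-linked genes tested, 0 were called higher and 4 lower, and library medians were as far apart as -1.70 and -0.23. Chromosome 16 had 42 tested genes with 1 higher and 12 lower. Its library medians were all at -0.71 or below, while its fitted median of -0.18 was above that of macrochromosome 5 (-0.26).

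**Figure D5:**
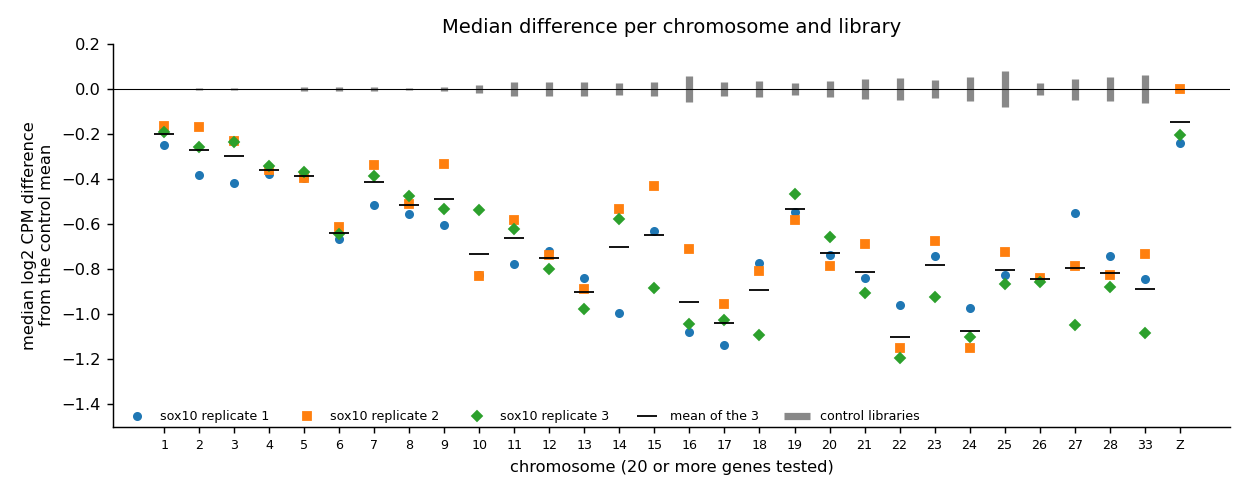
Median log2 CPM difference from the control mean of the genes on each chromosome, for the 3 sox10 libraries (symbols) and their mean (black dash), with grey bars for the spread of the control libraries. Values fall from -0.20 on chromosome 1, on average, to about -1.1 on chromosomes 22 and 24, and the Z chromosome lies at -0.15.

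Genes without any count in one group were found mostly on one side. At a mean of at least 5 CPM of the library total in the control, 47 genes had 0 counts in all 3 sox10 libraries. In turn, 4 genes at 5 CPM or more in the sox10 group had 0 counts in both control libraries. All 47 genes were called lower, as their choice favours. Of them, 20 lay on macrochromosomes, which hold 6300 of the 14081 genes tested, and 19 on microchromosomes, which hold 4776. The 47 included 7 genes with 1 exon, of 567 such genes tested. A count of 0 over the sox10 libraries allows up to 0.102 CPM. Their control means were 5.16 to 42.6 CPM, with a median of 7.40 CPM. The same genes were at a median of 0.448 CPM in the tfap2b and 0.560 CPM in the double group, and 2 and 4 of them had 0 counts in every library there. They were at 5.24 CPM in the msx1 and 4.07 CPM in the sox3 group.

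The number of such genes turned on each sox10 library, since it was 120 without replicate 1, 105 without replicate 2 and 87 without replicate 3. At equal depth the counts were 49 genes at 0 in the sox10 group and 8 at 0 in the control. Among the 3743 lower genes, 2792 had a count in every sox10 library, 404 were at 0 in 1 library, 296 in 2 and 251 in 3. Of the higher genes, 2751 had a count in every sox10 library.

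Close neighbours were more often both called in the same direction, most clearly for higher calls. Up to 1 kb apart they were also more often of opposite call. How much of this follows from the call rate of such genes was not tested. Adjacent tested genes up to 1 kb apart were both called higher in 9.05% of 1945 pairs and both lower in 8.89%, and of opposite call in 10.95%. Genes 20 tested genes apart on a chromosome were both higher in 4.27% of 13433 pairs, both lower in 7.44% and of opposite call in 9.55%. Adjacent genes 1 to 10 kb apart were of opposite call in 9.55% of 5119 pairs. Over gaps of more than 100 kb, 2.74% of adjacent pairs were both higher and 6.49% both lower. Pearson's r of the fitted log2 fold changes was 0.21 up to 1 kb, 0.15 from 1 to 10 kb, 0.07 from 10 to 100 kb and 0.04 beyond. Pairs share a region's gene density and structure, and whether close genes share reads was not tested.

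In 34 places, 5 or more tested genes in a row were called lower, and in 10 places higher. These took in 192 of the 3743 lower and 53 of the 2795 higher genes. With 26.6% of all genes tested called lower and 19.8% higher, such rows also arise from the call rate alone. How many would do so was not tested. The longest row, picked after its values were seen, held 10 lower genes on chromosome 3 (104858039 to 104934788), none of which overlapped another feature. Its summed level was 185, 155 and 165 CPM of the library total in the sox10 libraries, against 1202 and 1087 CPM in the control libraries. Each gene of the row was called lower, so that sox10 levels below the control follow from how the row was picked. The row was at 153 ± 44.8 CPM in the tfap2b group (SD, n = 3) and at 175, 192 and 128 CPM in the double libraries. It was at 642, 641 and 889 CPM in the msx1 and 744 and 807 CPM in the sox3 libraries, also below the control. Whether its genes are near-identical copies that split reads was not tested, so that single genes there are uncertain.

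The next row held 9 lower genes on chromosome 6 (22156760 to 22311167), 3 of which overlapped another feature. It was at 33.1, 27.2 and 14.0 CPM in the sox10 libraries, against 237 and 229 CPM in the control. That difference follows from how the row was picked. It averaged 28.3 CPM in the tfap2b and 41.9 CPM in the double group. The msx1 (152, 161 and 204 CPM) and sox3 libraries (131 and 162 CPM) were also below the control. In the other direction the longest row held 7 higher genes on chromosome 3 (88712831 to 88790615). They summed to 430, 599 and 661 CPM in the sox10 libraries, against 154 and 154 CPM in the control, and 3 of the 7 overlapped another feature. Sox10 replicate 1 was the lowest of the 3 in that row, and sox10 levels above the control follow from how the row was picked. The tfap2b libraries spread more widely there, at 476 ± 236 CPM (SD, n = 3). The msx1 libraries (274, 343 and 179 CPM) and the sox3 libraries (316 and 292 CPM) were also above the control.

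Direct contrasts show where the sox10 group stood apart from its nearest groups. Set against tfap2b libraries, 92 genes were called higher and 270 lower, 2.57% of those tested. Against the double group, which carried 1 of the 2 sox10 guides, 978 were called higher and 866 lower, 13.1% of those tested (edgeR's quasi-likelihood test, adjusted p under 0.05). For the 2795 genes higher than in the control, the median log2 fold change over the double group was 0.52 and over the tfap2b group 0.30. For the 3743 lower genes it was -0.67 over the double and -0.57 over the tfap2b group. These sets were chosen with the same sox10 libraries, so their direction is not separate evidence.

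Both counts turned on single libraries and on the libraries fitted. The count against tfap2b was 1304 without tfap2b replicate 2, 922 without sox10 replicate 2, 112 without tfap2b replicate 1 and 158 without tfap2b replicate 3. With the libraries of both groups fitted alone, edgeR called 0 genes, with 861 of 11168 at an unadjusted p under 0.05. The count against the double group was 731 without double replicate 1, 787 without replicate 2, 1132 without replicate 3, and 1137 without sox10 replicate 3. With the libraries of both groups fitted alone it was 233. Without sox10 replicate 2, 1353 genes were called higher and 1401 lower than in the double group. Lower genes were the majority against double in each of the 6 fits that left out 1 library, and higher genes with RLE size factors (1238 higher, 780 lower). The count against the control was 6603 without sox10 replicate 2, the library nearest to the tfap2b and double groups.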

How the data were processed

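RNA had been sequenced as 40 bp paired reads, from SMART-Seq v4 cDNA, per the labels' protocols. The deposited values are whole-number read counts per gene and library, not normalized. The submitters' processing notes name galGal5 as the build and list the aligner STAR (2.4.2a), the counter featureCounts of Subread (1.4.5) and DESeq2. How strand was treated is not stated in any source used here.

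All 16 libraries entered 1 edgeR 4.0.16 fit (R 4.3.3) of the deposited counts, with a term for each group and no other covariate. Scaling was by TMM, low genes were removed by filterByExpr and estimation was robust. A printed SE is the absolute log2 fold change over the root of its F statistic. The common dispersion gave a coefficient of variation of 0.478, and 10 degrees of freedom were left for the spread. CPM of single genes use TMM library sizes, and library medians use log2 CPM with a prior count of 2. Exceptions are the W chromosome, the genes at 0 in a library or group and the rows of neighbours, whose CPM use the library total. TMM factors were 0.799, 0.839 and 0.759 in the sox10 libraries and 1.12 and 1.17 in the control, so that the scales differ. Exonic lengths and coordinates are those of the deposited annotation columns. Exon number counts the separate blocks left after overlapping exon intervals listed there were merged. Blocks only a few bases apart thus count as separate exons, as in ENSGALG00000016397. Quintiles split the genes tested into 5 equal classes. Genes were named by smallest adjusted p within the limits stated, at most 2 per direction because no symbols matched. The lists of cell type markers could not be used for the same reason. The fit was tested on simulated data. Alternatives used DESeq2 1.42.0, limma 3.58.1, other scalings, filters and libraries. The groups, classes and tests were chosen with earlier results of these data known.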

Additional observations from a re-analysis of the deposited data

How the results depend on the processing

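The count of changes between sox10 and control was 3608 (1509 higher, 2099 lower) with close pairs of libraries summed, 3794 (1458 higher, 2336 lower) against a 2-fold threshold (glmTreat), and 4175 (2115 lower) with the 2 groups alone. Leaving out 1 library gave 4595 to 6734 (1886 to 2893 higher, 2709 to 3841 lower). Against the double group the 2 groups alone gave 233 (178 higher, 55 lower), and leaving out 1 library 731 to 2754 (318 to 1353 higher, 413 to 1401 lower). Against tfap2b the 2 groups alone gave 0 in all (0 higher, 0 lower), and leaving out 1 library 112 to 1304 (17 to 679 higher, 95 to 667 lower). Replicate numbers did not pair the samples (correlations of deviations from -0.09 to 0.03). A replicate block gave 159 genes (35 higher, 124 lower) against tfap2b, 652 higher and 658 lower against double, and 2622 higher and 3593 lower against control.

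Genes at 0 in every sox10 library were 14 at a 10 CPM minimum and 45 to 120 without 1 library. Genes at 0 in every control library were 1 at 10 CPM, 8 at equal depth and 5 to 13 without 1 library. The median log2 fold change of all genes was -0.21 with DESeq2, -0.54 with limma-voom, -0.24 at 10 CPM, -0.23 with the 2 groups alone, -0.38 with the block, -0.21 with RLE, -0.04 with upper-quartile scaling and -0.39 to -0.28 without 1 library. Relative to all genes, macrochromosomes were at 0.20 with limma-voom, 0.18 against msx1 and 0.18 against sox3 libraries in place of the control, and 0.21 to 0.24 without 1 library, and microchromosomes at -0.39 to -0.31 without 1 library. Single-exon genes were at -0.89 with limma-voom, -0.85 at 10 CPM, -0.76 without overlapping genes and -0.91 to -0.57 without 1 library. Against sox3, genes of over 20 exons were at -0.37, the longest exons at -0.26, the longest introns at -0.22 and the highest level at 0.87. Without 1 library these were at -0.61 to -0.43, -0.44 to -0.30, -0.46 to -0.36 and 0.91 to 1.06. The highest level was at 1.18 with limma-voom. The shortest exons were at 0.97 at 10 CPM and 0.41 to 0.67 without 1 library. The lowest level was at -5.01 at 10 CPM, where few of its genes are left, -0.71 against msx1, -0.80 with the 2 groups alone, -0.58 with the block and -0.98 to -0.29 without 1 library. The cause of these shifts was not tested. No class median relative to all genes changed sign in an alternative run. In all, 233 values were classed as unchanged, and some of them are among those listed above. The limit was wide for counts, as 4595 genes in place of 6538 fell within it. The majority direction of calls also turned in some (3311 higher and 3154 lower than in the control with upper-quartile scaling). The 4 genes named by ID kept their calls under the 19 alternatives run, with a smaller fold change for ENSGALG00000016397 against msx1 (-1.21) and sox3 (-1.90).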
